A study of Bos taurus with 4 samples.

Results

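Glycosylation enzymes build and attach the sugar chains that proteins and lipids carry, and their transcripts were compared here between embryos of cows with high and with low blood beta-hydroxybutyrate (BHB), a ketone body. The genes were taken by symbol: the ALG, DPM, RPN, STT3, OST, MGAT, B3GAL, B4GAL, B3GNT, FUT, ST3, ST6, ST8, GALNT, PIG, EXT, NDST, HS and CHST families with DPAGT1, DDOST and DAD1. On the array 214 probes for 152 genes matched, of 15216 genes with a symbol. Of the 152 genes, 75 were above background often enough to be tested (49.3%, against 51.8% of all genes with a symbol). Counts and medians below are over these 75 and leave out the other 77. A few of the 152 match by their letters alone and make no sugar chain (OSTF1, OSTM1, OSTN, PIGR, SLC51A and SLC51B), and these are described apart.

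The embryos were morulas and blastocysts of Holstein cows (Bos taurus), recovered 7 days after the start of oestrus. All cows, in both groups, were superovulated with follicle-stimulating hormone, given cloprostenol and inseminated with sexed semen of several bulls. Cows of the low BHB group had a systemic BHB under 0.9 mmol/l, and cows of the high BHB group had over 0.9 mmol/l. Cows were thus sorted by a blood value and not treated with BHB, and the labels do not say how many cows or embryos gave each RNA or how stages were mixed. RNA was amplified before labelling. Each of 4 dual-colour arrays held 1 high BHB and 1 low BHB RNA. The high BHB RNA was in Cy5 on arrays 1 and 2 and in Cy3 on arrays 3 and 4. The labels call the arrays 4 biological replicates, but the titles of arrays 3 and 4 repeat the numbers 1 and 2 and mark a dye swap. Whether those arrays carried the RNA of arrays 1 and 2 again is not stated, and all 4 are counted as replicates here. Because nothing says what a replicate was made of, p-values measure only the spread between these arrays. Unless said otherwise, a value is the log2 ratio of high over low BHB, and a spread is the SD over 4 arrays (n = 4).

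N-linked glycosylation starts on a lipid, dolichol, on which a branched sugar is assembled in the endoplasmic reticulum and from which the oligosaccharyltransferase complex moves it to asparagines of new proteins. Golgi enzymes then trim the chain, branch it and extend it with galactose, N-acetylglucosamine, sialic acid and fucose. Other routes build mucin-type chains on serine and threonine, heparan sulfate chains on proteoglycans, and the glycosylphosphatidylinositol (GPI) anchor that holds some proteins to the cell surface. In early embryos these sugars take part in compaction, in signalling by growth factors that bind heparan sulfate, and in the contact of the embryo with the uterus.

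The ratios of these genes were small and varied between arrays. No member passed an adjusted p of 0.05 in limma (Benjamini-Hochberg over 16575 probes), where 2 of those probes did (0.0121%), neither with a gene symbol. The call depended on how the titles are read: when arrays that share a title number were averaged before the fit, 5 members passed (EXT1, EXT2, B3GALT2, B3GALNT1 and B4GALT2; 6.67%), against 9.24% of all 16575 probes. That fit has only 2 values per gene, so that its p-values lean on the variance limma pools over probes. Without that averaging the smallest adjusted p of a member was 0.258, for EXT2. At an unadjusted p under 0.05, 3 members were higher with high BHB (EXT2, B3GALT2 and B3GNT6; 4% of the 75, against 5.71% of all 7879 genes tested). At the same threshold 4 were lower (OSTF1, PIGF, PIGY and EXT1; 5.33%, against 11.6%). Ratios were above 0 on all 4 arrays for 9 members (12%, against 10.3% of all genes) and below 0 on all 4 for 7 (9.33%, against 15.6%). The shares of higher members thus lay near those of all genes, and the shares of lower members lay under them.

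The mean ratio was above 0 for 40 of the 75 genes and below 0 for 35. The median was 0.03, where the median of all 7879 genes was -0.04. On arrays 1 to 4 the members' median was -0.16, 0.08, 0.03 and -0.01, so that it was below 0 on 2 arrays and above 0 on 2. The median of all genes was -0.14, 0.01, -0.02 and -0.06 on the same arrays. Mean ratios reached 0.5 in either direction for 18 members, 13 higher and 5 lower (24%, against 23.5% of all genes), and none reached 1. The median half-width of a gene's 95% interval was 0.53, and the number of arrays limits the precision.

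**Figure D1:**
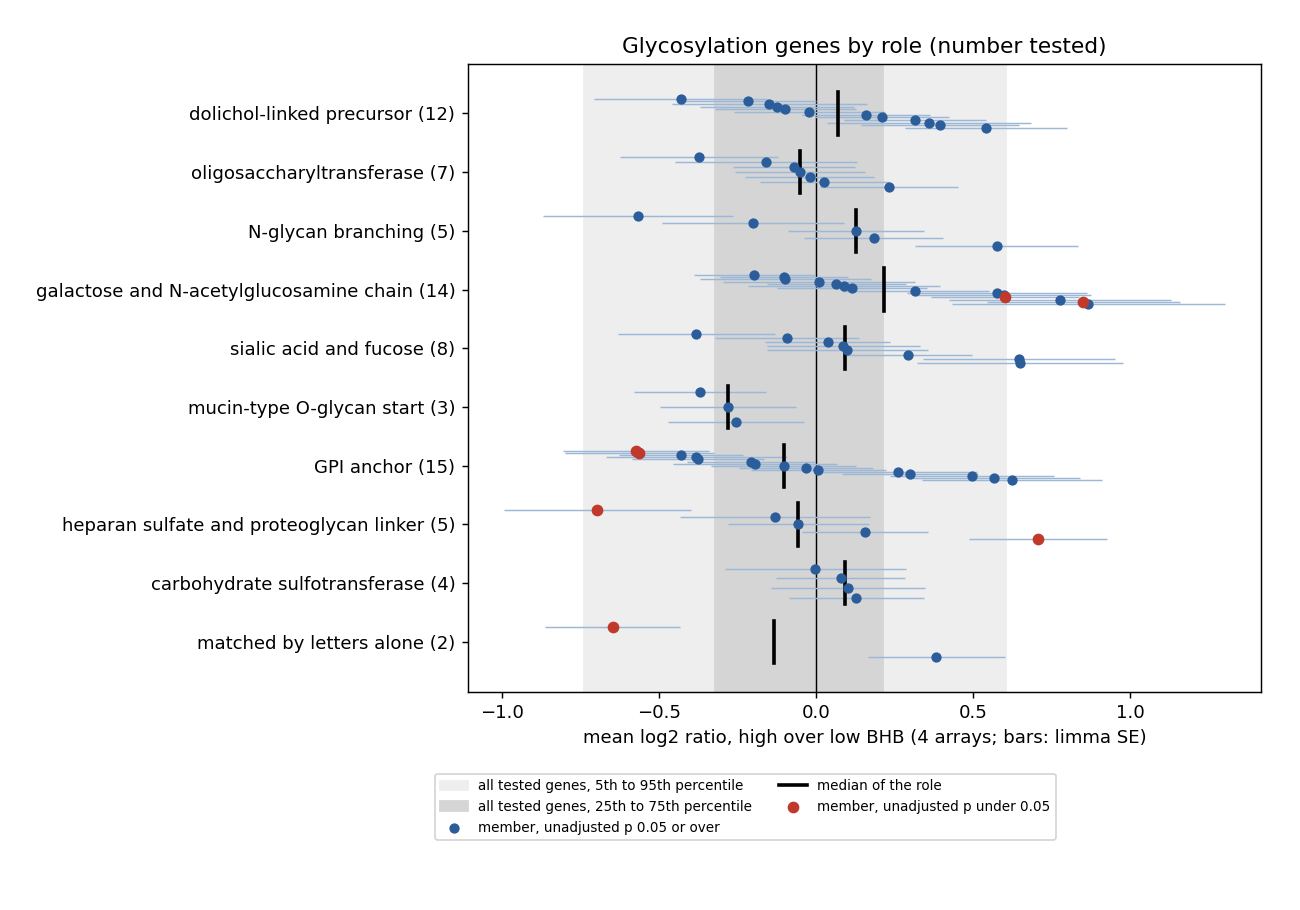
Mean log2 ratio of high over low BHB for each of the 75 tested genes, by role (rows, with the number tested); points are genes, bars limma standard errors over 4 arrays, black ticks medians of roles, red points an unadjusted p under 0.05. The light grey band runs from the 5th to the 95th percentile of all 7879 tested genes (-0.74 to 0.61). The dark grey band runs from the 25th to the 75th percentile (-0.32 to 0.21), and the full range of all genes was -1.54 to 1.54. Most members lie inside the light band, and the highest, B3GALNT1 at 0.87, has a long bar.

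The arrays themselves differed. The SD of the ratios of all tested probes was 0.83, 0.44, 0.52 and 0.61 on arrays 1 to 4. Between 33.4% and 40.5% of all probes were above background in the high BHB channel, and between 33.6% and 48.6% in the low BHB channel. The widest gap was on array 1, with 33.4% for the high and 48.6% for the low BHB RNA. Of the 75 members, 28 had the value farthest from those of their other arrays on array 1, as did 39.3% of all genes. Over pairs of arrays, Pearson's r across the 75 genes was between 0.00 and 0.25, and across all genes between 0.13 and 0.38. For the arrays of a shared title number, r across all genes was 0.13 (1 and 3) and 0.20 (2 and 4); these are descriptions, as genes on shared arrays are not independent. A dye effect had an unadjusted p under 0.05 in limma for 2 members, B3GALNT1 (adjusted p = 0.992) and PIGT (adjusted p = 0.992), and for 3.68% of all probes. None of the 16575 probes passed the adjusted threshold for it.

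How often a gene could be tested at all depended on its role. The oligosaccharyltransferase complex was tested in full (7 of 7 genes on the array), the GPI anchor enzymes in 15 of 18 and the dolichol-linked precursor enzymes in 12 of 16. Galactose and N-acetylglucosamine chain enzymes were tested in 14 of 24 and N-glycan branching enzymes in 5 of 8. Other families were mostly at background: sialyl- and fucosyltransferases were tested in 8 of 27, mucin-type starter enzymes in 3 of 12, heparan sulfate and linker enzymes in 5 of 21, and carbohydrate sulfotransferases in 4 of 13. Of the 77 genes not tested, 44 were above background in none of the 8 channels, 20 in 1 or 2, and 13 in 3 or more. Among the 44 were ALG13, PIGQ, MGAT3 (which adds the bisecting N-acetylglucosamine), NDST1 (a heparan sulfate deacetylase and sulfotransferase) and GALNT2. A probe at background does not show that its gene was silent.

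**Figure D2:**
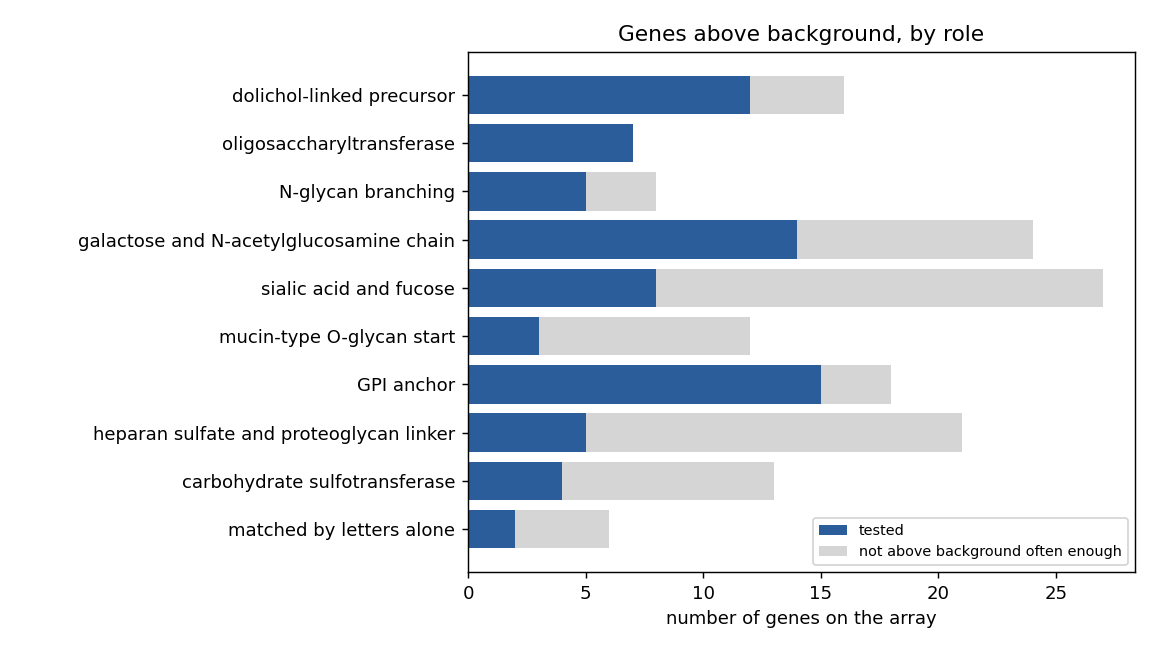
Number of matching genes on the array per role (horizontal axis), split into genes above background often enough to be tested (blue) and the others (grey). The 7 oligosaccharyltransferase genes were all tested, while 19 of 27 sialic acid and fucose genes were not.

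The dolichol-linked precursor enzymes were split evenly, with 6 of 12 tested genes above 0 and a median of 0.07. None reached an unadjusted p of 0.05. With both channels required, 6 of 11 were above 0, with a median of 0.16. ALG3, which adds the first mannose on the luminal side of the endoplasmic reticulum, had the highest mean, with ratios of -0.36, 0.99, 0.84 and 0.70 on arrays 1 to 4. It was higher with high BHB on 3 arrays and lower on array 1, where its high BHB signal was not above background. The mean was 0.54 ± 0.61, or 1.45-fold (adjusted p = 0.349 in limma). DPM3, which tethers dolichol-phosphate mannose synthase to the membrane, had the lowest mean, with ratios of -1.27, 0.08, 0.20 and -0.74. Its high BHB signal was not above background on arrays 1 and 4, the arrays with the ratios below 0. DPM3 thus entered the test through the low BHB channel alone, so that a ratio below 0 was favoured by the filter. Its mean was -0.43 ± 0.70 (adjusted p = 0.458), and -0.15 without array 1. The other subunits of that enzyme, the catalytic DPM1 and the stabilising DPM2, had means of -0.12 and 0.21.

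The glucosyltransferases that finish the precursor both had means above 0, ALG6 at 0.39 ± 0.58 and ALG8 at 0.36 ± 0.93. For ALG6 a second probe gave -0.09, and without array 4 the mean of ALG8 was -0.02. ALG5, which makes the glucose donor for both, had a mean of -0.10 ± 0.42. The early mannosyltransferases ALG1 and ALG2 had means of 0.32 and 0.16, and ALG11, which acts after them, had -0.15. DPAGT1, which starts the whole pathway, was above background in 4 of 8 channels and was not tested. With arrays centred on their medians in place of loess, the median of all genes shifted by -0.19 and that of these enzymes became -0.27.

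The oligosaccharyltransferase subunits lay close to 0. Of 7, 2 were above 0 and 5 below, the median was -0.05, and none reached an unadjusted p of 0.05. STT3A, the catalytic subunit that works while a protein is still being translocated, had ratios of 0.20, 0.08, 0.19 and -0.36. Its mean was 0.03 ± 0.27. STT3B, the catalytic subunit that also acts after translation, had ratios of 0.92, -0.15, -0.70 and -0.70. Only array 1 was above 0, and the mean went from -0.16 ± 0.77 to -0.52 without it. Other STT3B probes gave -0.50 and -0.14.

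RPN1, RPN2 and DAD1, the non-catalytic subunits that both forms of the complex share, had means near 0. RPN1 had ratios of -0.31, -0.15, 0.13 and 0.25, with a mean of -0.02 ± 0.25. RPN2 had ratios of -0.16, -0.06, 0.34 and -0.33, with a mean of -0.05 ± 0.28. DAD1, named for the cell death that follows its loss, had ratios of -0.26, -0.06, 0.03 and -0.00, with a mean of -0.07 ± 0.13. Its 95% interval was -0.51 to 0.37.

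DDOST, another shared subunit, had ratios of 0.70, 0.33, -0.20 and 0.08 and the highest mean of the complex, 0.23 ± 0.38, which was 0.075 without array 1. OSTC, a subunit of the STT3A form, had ratios of -0.99, 0.35, -0.66 and -0.19 and the lowest mean, -0.37 ± 0.59 (adjusted p = 0.488 in limma), which was -0.16 without array 1. A second OSTC probe gave -0.64, on the same side. With median centring all 7 were below 0, with a median of -0.52; STT3A at -0.29 and DDOST at -0.14 changed direction there. The level of RPN2 differed more between arrays than between the groups. It had log2 levels of 12.20, 13.08, 12.33 and 12.08 in the high BHB RNAs and of 12.36, 13.15, 11.99 and 12.40 in the low BHB RNAs, so that both groups were high on array 2.

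N-glycan branching enzymes went both ways, with 3 of 5 above 0 and a median of 0.13. That median is the value of MGAT5, which entered the test through the high BHB channel alone. With both channels required, 2 of 4 were above 0 and the median was -0.0087. None of the 5 reached an unadjusted p of 0.05. MGAT1, whose step opens the way to all hybrid and complex N-glycans, had ratios of 1.15, 0.89, 0.52 and -0.27. It was higher with high BHB on 3 arrays and lower on array 4, and its mean was 0.57 ± 0.62, or 1.49-fold (adjusted p = 0.335 in limma), and 0.38 without array 1. MGAT4A, which adds a branch to the chain that MGAT1 has started, had ratios of -1.73, 0.20, -0.49 and -0.23. The lowest value came from array 1, where its high BHB signal was not above background. The mean was -0.57 ± 0.83 (adjusted p = 0.38), and -0.18 without array 1. Its paralogue MGAT4B had a mean of 0.18 ± 0.40, MGAT2, which follows MGAT1, had -0.20 ± 0.78, and MGAT5, which adds the branch favoured for long lactosamine chains, had 0.13 ± 0.36. With median centring MGAT1 was at 0.08 and the median of the 5 genes at -0.26.

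The enzymes that extend chains with galactose, N-acetylgalactosamine and N-acetylglucosamine were the role with most genes above 0: 11 of 14 (all genes, 45.6%). Their median was 0.22 where that of all genes was -0.04. The share was close to those of sialyl- and fucosyltransferases (6 of 8) and carbohydrate sulfotransferases (3 of 4), and the role was singled out by these ratios. B4GALNT2 entered the test through the high BHB channel alone. With both channels required, 10 of 13 were above 0. The median of these 14 was above 0 on each array, at 0.20, 0.02, 0.04 and 0.28. It was also above 0 under each of the 15 alternative settings, from 0.10 with median centring to 0.40 without array 3, and was 0.12 without array 1. At an unadjusted p under 0.05, 2 of the 14 were higher and none was lower, and 0 passed the adjusted threshold.

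B3GALT2, a beta-1,3-galactosyltransferase, had ratios of 2.08, 0.57, 0.15 and 0.60. It was higher with high BHB on every array, but its log2 levels overlapped between groups, from 10.65 to 12.80 in the high and from 10.05 to 11.65 in the low BHB RNAs. The mean was 0.85 ± 0.85, or 1.80-fold (adjusted p = 0.286 in limma). Without array 1 it was 0.44, and with arrays of a title number averaged its adjusted p was 0.00965. B3GNT6, which makes the core 3 structure of mucin-type chains, had ratios of 0.57, 0.61, 0.02 and 1.21. All 4 were above 0, with array 3 close to 0, where its low BHB signal was not above background. The mean was 0.60 ± 0.48, or 1.52-fold (adjusted p = 0.304), and 0.40 without array 4.

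B3GALNT1, which makes the glycolipid globoside, had the highest mean of all 75 genes and the widest spread. Its ratios were -0.16, 0.10, 0.65 and 2.88, and the mean of 0.87 ± 1.38 (adjusted p = 0.36 in limma) became 0.20 without array 4. With arrays of a title number averaged its adjusted p was 0.00954, from 2 values, 1 of which took in the 2.88 of array 4. Its log2 level in the low BHB RNAs was 9.62, 7.93, 8.46 and 7.78, and in the high BHB RNAs 9.47, 8.02, 9.11 and 10.66. The ratios on the arrays with high BHB in Cy3 were the high ones, and this gene was among the 2 members with a dye effect at an unadjusted p under 0.05. B4GALT2, a beta-1,4-galactosyltransferase, had ratios of 2.31, 0.20, 0.01 and 0.58, with a mean of 0.78 ± 1.05 (adjusted p = 0.337, and 0.0203 with that averaging) that became 0.26 without array 1.

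B3GNT9, B3GALNT2 (an enzyme of the sugar chain on alpha-dystroglycan) and B4GALT3 had means of 0.60, 0.58 and 0.32. Each had its highest ratio on array 1, at 1.48, 1.64 and 1.02, and without that array the means were 0.30, 0.22 and 0.08. The lowest mean belonged to B4GALT6, a lactosylceramide synthase, with ratios of -0.21, -0.07, -0.21 and -0.29. All were slightly below 0, at -0.20 ± 0.09, the smallest spread among the 75 genes. B4GALT5, the other lactosylceramide synthase, had a mean of 0.06 ± 0.39. B4GALT1, which makes most N-acetyllactosamine and, with alpha-lactalbumin, milk lactose, had -0.10 ± 0.26, and B3GNT2, the main polylactosamine enzyme, -0.10 ± 0.69 with a second probe at 0.37.

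**Figure D3:**
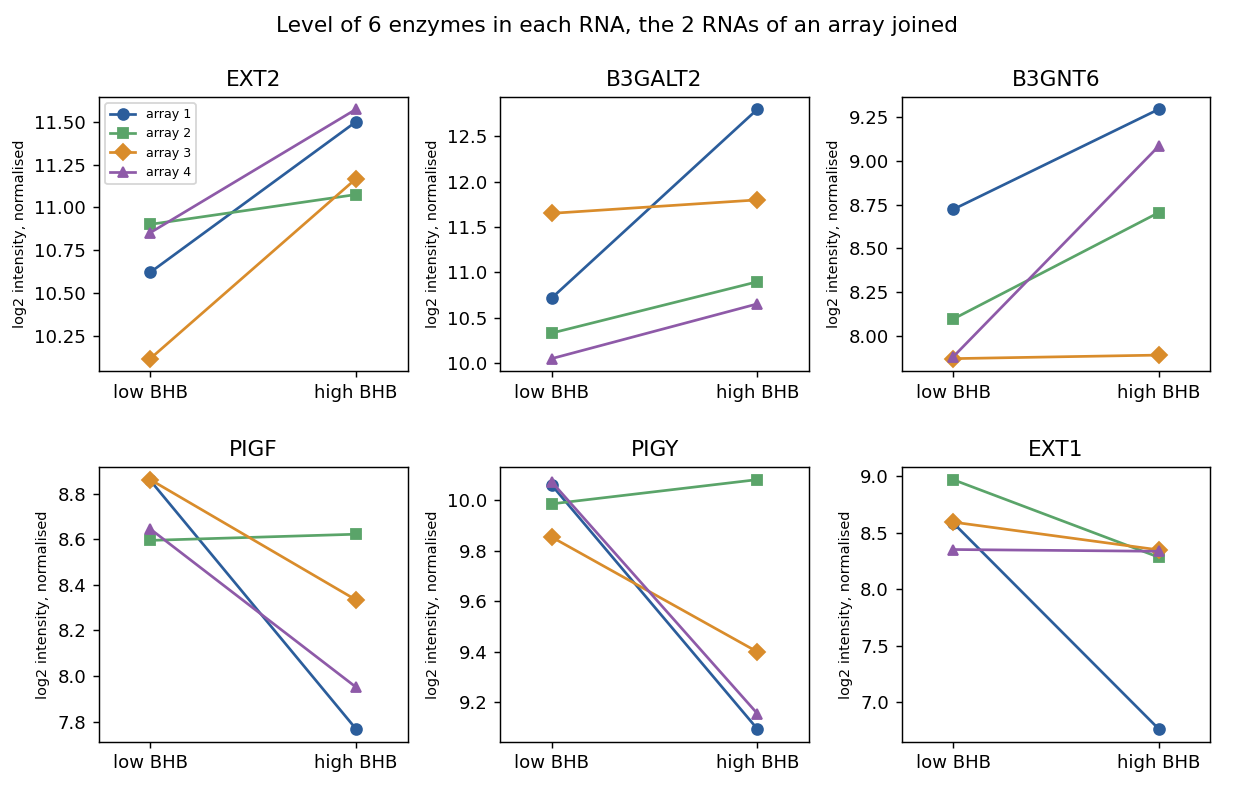
Normalised log2 intensity (vertical axis, own scale in each panel) of 6 enzymes with an unadjusted p under 0.05, in the low and high BHB RNA of each array, joined by a line per array. EXT2, B3GALT2 and B3GNT6 go up on each array, with B3GNT6 nearly level on array 3, and EXT1, PIGF and PIGY are lowest in the high BHB RNA of array 1.

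Among sialyl- and fucosyltransferases, which cap the chains, 6 of 8 tested genes were above 0, with a median of 0.09. None reached an unadjusted p of 0.05. ST3GAL4, which adds alpha-2,3-linked sialic acid to galactose, had ratios of 2.03, 0.21, 0.41 and -0.06. Array 1 stood far above the rest, and the mean of 0.65 ± 0.94, or 1.57-fold (adjusted p = 0.362 in limma), became 0.19 without it. ST6GALNAC2, which sialylates O-linked N-acetylgalactosamine, had a mean of the same size, 0.65 ± 0.84, carried by arrays 2 and 3 (1.08 and 1.61), and 0.32 without array 3. ST6GALNAC6 was above 0 on all 4 arrays at 0.29 ± 0.27, though it was tested through the high BHB channel alone, with 3 of its 8 channels not above background, and was 0.17 without array 4. FUT8, the enzyme of core fucose on N-glycans, had the lowest mean, with ratios of -0.25, 0.26, -1.11 and -0.42. Its mean of -0.38 ± 0.57 (adjusted p = 0.471) became -0.14 without array 3, where its high BHB signal was not above background. FUT11, ST3GAL2, ST8SIA5 and ST8SIA6 had means between -0.09 and 0.10. FUT11 also entered the test through the high BHB channel alone, and ST8SIA5 through the low BHB channel alone. With both channels required, 3 of 5 genes were above 0, with a median of 0.10. Without array 1, 3 of the 8 genes were above 0 and the median was -0.06.

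The enzymes that start mucin-type chains by adding N-acetylgalactosamine to serine or threonine were all below 0, but only 3 of 12 could be tested. GALNT11 had ratios of -0.80, -0.21, -0.35 and -0.12, with a mean of -0.37 ± 0.30, or 1.29-fold lower (adjusted p = 0.406 in limma), and -0.23 without array 1. GALNT1 had ratios of -0.76, -0.01, -0.22 and -0.03, with a mean of -0.25 ± 0.35, and -0.086 without array 1. Both were lowest on array 1, and both were below 0 on all 4 arrays. GALNT7, which works on chains already begun by other members, had a mean of -0.28 ± 0.36. GALNT11 was above background in all 8 channels. The high BHB signal of GALNT7 was above background on only 1 array, and that of GALNT1 on 2, so that these genes entered the test through the low BHB channel, where they were brighter. Their ratios below 0 were thus favoured by the filter. None reached an unadjusted p of 0.05. With both channels required only GALNT11 was left, and with no filter 4 of the 12 genes were above 0, with a median of -0.063.

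Of the GPI anchor enzymes 6 of 15 were above 0 and 9 below (60%, against 54.4% of all genes), with a median of -0.10. The median was -0.55 on array 1 and between -0.11 and 0.10 on the other arrays, and without array 1 it was -0.00. At an unadjusted p under 0.05 none was higher and 2 were lower (13.3%, against 11.6% of all genes). PIGF, which partners PIGO, had ratios of -1.09, 0.03, -0.53 and -0.69. It was lower with high BHB on 3 arrays and level on array 2. The log2 levels were 7.77, 8.62, 8.33 and 7.95 in the high and 8.86, 8.60, 8.86 and 8.65 in the low BHB RNAs, so that the groups overlapped through array 2 alone. On array 1 its high BHB signal was not above background. The mean was -0.57 ± 0.46, or 1.49-fold lower (adjusted p = 0.314 in limma), and -0.40 without array 1.

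PIGY, a subunit of the transferase that makes the first GPI intermediate, followed the same arrays. Its ratios were -0.97, 0.10, -0.46 and -0.92, with a mean of -0.56 ± 0.50, or 1.48-fold lower (adjusted p = 0.322 in limma). A second PIGY probe gave -0.32. In human, PIGY is read from the same transcript as PYURF, so that a probe may not tell the pair apart. The other tested PIG genes of that transferase had means below 0 or at 0: the catalytic PIGA had 0.01 ± 0.35, PIGH -0.21 ± 0.26 and PIGP -0.10 ± 0.45. The high BHB signal of PIGA was above background on 1 array and that of PIGH on 2. Both entered the test through the low BHB channel alone, so that ratios below 0 were favoured by the filter.

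PIGO, which adds the ethanolamine phosphate through which the protein is joined, had the highest mean of the role. Its ratios were -0.29, 0.87, 0.41 and 1.50, and on arrays 3 and 4 they were opposite in sign to those of PIGF. Its mean was 0.62 ± 0.75, or 1.54-fold (adjusted p = 0.34 in limma), and 0.33 without array 4. PIGL, the deacetylase of the second step, was above 0 on all 4 arrays at 0.50 ± 0.63, mostly through array 1 (1.42), and at 0.19 without it. PIGW, which adds a fatty acid to the inositol, was below 0 on all 4, with a narrow range of -0.66 to -0.27 and a mean of -0.43 ± 0.17 (adjusted p = 0.34).

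The transamidase that attaches the finished anchor to proteins had subunits on both sides of 0. The catalytic subunit PIGK was below 0 on all 4 arrays, with a mean of -0.37 ± 0.31 that was -0.22 without array 4. PIGT had 0.57 ± 0.70 (0.29 without array 3), PIGU 0.26 ± 0.58 (0.087 without array 4) and PIGS -0.03 ± 0.34. PIGT was the other member with a dye effect at an unadjusted p under 0.05. Of the mannosyltransferases, PIGM, which adds the first mannose, had 0.30 ± 0.36, with a second probe at -0.12, and PIGB, which adds the third, had -0.38 ± 0.76. PIGN had -0.19 ± 0.63, with other probes at 0.05 and -0.11.

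Heparan sulfate is polymerised by a complex of EXT1 and EXT2, and the pair of genes had ratios on opposite sides of 0 in every array. EXT2 had ratios of 0.88, 0.17, 1.05 and 0.72. Its log2 levels were 11.50, 11.08, 11.17 and 11.57 in the high BHB RNAs and 10.62, 10.90, 10.12 and 10.85 in the low BHB RNAs. The mean was 0.71 ± 0.38, or 1.63-fold (95% interval 0.21 to 1.20, adjusted p = 0.258 in limma). It lay between 0.59 and 0.88 with any array left out, and was 0.23 with median centring. With arrays of a title number averaged its adjusted p was 0.0351.

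EXT1 had ratios of -1.83, -0.69, -0.25 and -0.02. Its log2 levels were 6.76, 8.28, 8.35 and 8.34 in the high BHB RNAs and 8.59, 8.97, 8.60 and 8.35 in the low BHB RNAs, so that the groups met at 8.35. The value of 6.76, on array 1, was not above background. The mean was -0.70 ± 0.81, or 1.62-fold lower (adjusted p = 0.326 in limma), and -0.32 without array 1. With the averaging its adjusted p was 0.0389. EXT2 minus EXT1 was 2.71, 0.86, 1.30 and 0.74 on arrays 1 to 4, with a mean of 1.40 ± 0.90. The pair was singled out by these ratios, so that their difference is a description with no test. It shows that the ratios were unequal within each array, not which of the genes differed.

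The other tested genes of heparan sulfate and of the linker to the core protein lay near 0. B3GALT6, a galactosyltransferase of the linker, had a mean of -0.13 ± 0.83, with 1.07 on array 2 and -0.84 on array 1. The sulfotransferases HS6ST2 and HS3ST5 had means of -0.06 ± 0.42 and 0.16 ± 0.20. The EXTL and NDST genes on the array were not tested, nor were B4GALT7 and HS2ST1. The median of the 5 tested genes was -0.06 and changed sign under several settings, for example to 0.10 without array 1.

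The carbohydrate sulfotransferases showed little difference, with 3 of 4 tested genes above 0 and a median of 0.09. CHST14, which sulfates dermatan, had ratios of -0.58, 0.67, 0.64 and -0.74, which cancelled to a mean of -0.00 ± 0.76. CHST10, which makes the HNK-1 epitope, had ratios of 0.11, -0.34, 0.46 and 0.29, with a mean of 0.13 ± 0.35 and a second probe at 0.19. Its brightest probe entered the test through the low BHB channel alone. The chondroitin sulfotransferases CHST12 and CHST13 had means of 0.10 and 0.08. With median centring the median of the 4 genes was -0.03.

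Of the genes matched by their letters alone, OSTF1, osteoclast stimulating factor 1, had ratios of -0.57, -0.29, -0.60 and -1.13. All were below 0, and the mean was -0.65 ± 0.35, or 1.57-fold lower (adjusted p = 0.275 in limma), with a second probe at -0.37. OSTM1, a partner of the lysosomal chloride transporter CLCN7, had ratios of 0.68, 0.04, 0.10 and 0.71, with a mean of 0.38 ± 0.36 and a second probe on the other side, at -0.21. Without these genes 39 of 73 members were above 0, and the median was again 0.03.

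**Figure D4:**
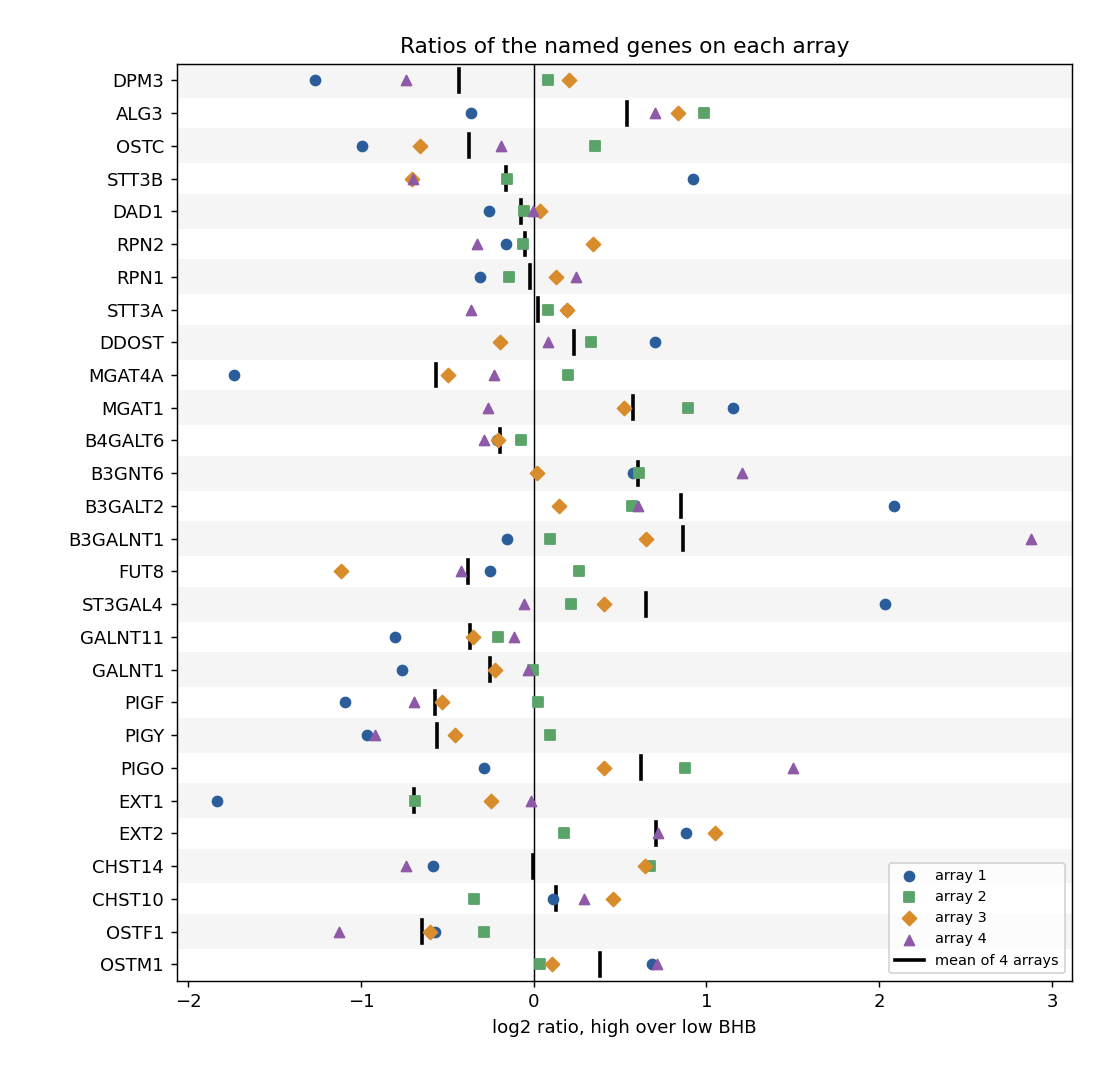
Log2 ratio of high over low BHB (horizontal axis) on each of the 4 arrays for the 28 genes given with all values, ordered by role; black ticks are means. Array 1 (blue circles) holds many of the extreme values, such as 2.08 for B3GALT2 and -1.83 for EXT1, and array 4 that of B3GALNT1 at 2.88.

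For 15 members more than 1 probe was tested, which gave 17 pairs of the brightest and another probe. The signs were the same in 11 pairs and opposite in 6 (ALG6, B3GNT2, DAD1, OSTM1, PIGM and 1 pair of PIGN). The difference within a pair had a median of 0.25 and reached 0.60 for OSTM1. The mean ratios of most members were no larger than the highest of these differences. Of the genes with an unadjusted p under 0.05, OSTF1 and PIGY had a second probe, on the same side in both, and EXT1, EXT2, B3GALT2, B3GNT6 and PIGF had 1 tested probe each.

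**Figure D5:**
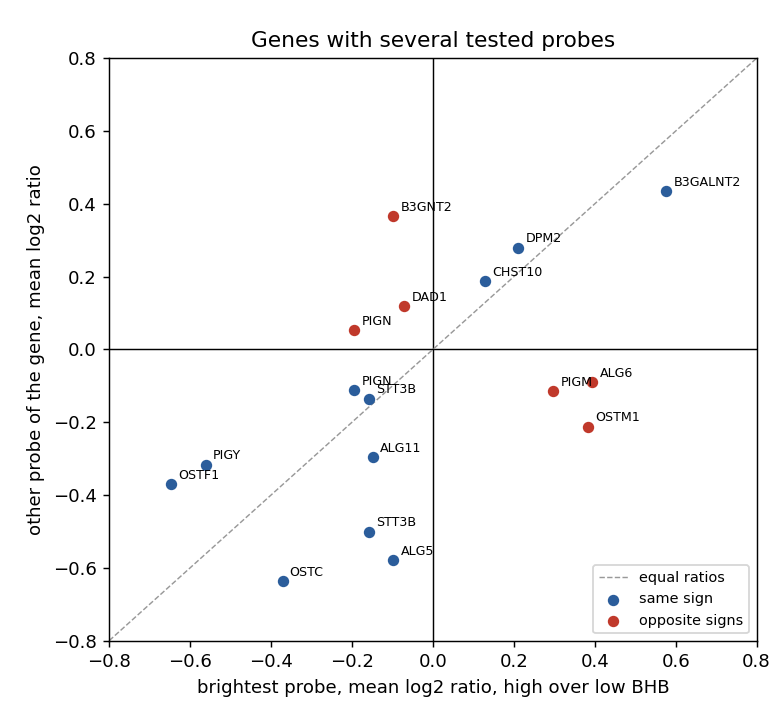
Mean log2 ratio of the brightest probe (horizontal axis) against that of another tested probe of the same gene (vertical axis), 17 pairs from 15 genes; the dashed line marks equal ratios. Blue points share a sign (11 pairs) and red points do not (6 pairs).

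Genes around these enzymes were taken from lists of the same pathways: 55 of 94 genes on the array were tested, with 31 above 0, 24 below and a median of 0.05. At an unadjusted p under 0.05, 6 were higher (10.9%, against 5.71% of all genes) and 6 lower (10.9%, against 11.6%), and 0 passed the adjusted threshold in limma. The supply of sugar nucleotides held 6 of these 12. UGP2, which makes UDP-glucose, had ratios of -1.66, -0.67, -0.40 and -0.84, with a mean of -0.89 ± 0.54, or 1.86-fold lower (adjusted p = 0.224). All its ratios were below 0, and array 1 was the lowest.

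GDP-fucose makes a small group within that list, singled out by these ratios. GMDS, the first enzyme of its synthesis from GDP-mannose, had ratios of 0.35, 0.86, 0.52 and 0.99 (mean 0.68 ± 0.29, adjusted p = 0.257 in limma), and entered the test through the high BHB channel alone. SLC35C1, which carries GDP-fucose into the Golgi, had 1.44, 0.58, 0.48 and 0.48 (mean 0.75 ± 0.47, adjusted p = 0.258). FPGT, an enzyme of the salvage route to GDP-fucose, had -0.15, -0.34, -0.74 and -1.86 (mean -0.77 ± 0.77, adjusted p = 0.292). GMDS and SLC35C1 were above 0 on all 4 arrays and FPGT below 0 on all 4. FCSK, the kinase that precedes FPGT, had a mean of 0.35 ± 0.44 and, like GMDS, entered the test through the high BHB channel alone. Over all 18 tested genes of sugar nucleotide supply 8 were above 0, with a median of -0.16.

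In a list of further genes of GPI anchor transfer, remodelling and release, 5 of 5 tested genes were above 0 (all genes, 45.6%), with a median of 0.31. GPAA1, a transamidase subunit, was at 0.03 ± 0.47. The transamidase subunits on both sides of 0 described above were counted with the PIG genes, of which 6 of 15 were above 0. The difference between these lists was not tested. PGAP6 had ratios of 0.39, 0.43, 1.09 and 0.39 (mean 0.57 ± 0.35, adjusted p = 0.292 in limma). MPPE1, a remodelling enzyme of anchors leaving the endoplasmic reticulum, had 1.12, 0.24, 0.23 and 0.78 (mean 0.59 ± 0.43, adjusted p = 0.302). Both were above 0 on all 4 arrays. With median centring, and likewise without array 3, 3 of the 5 genes were above 0.

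Of N-glycan trimming and quality control genes 7 of 11 were above 0 (median 0.18). EDEM3, which helps to mark misfolded glycoproteins for disposal, was the only one with an unadjusted p under 0.05, at -0.51 ± 0.26 with all ratios below 0 (adjusted p = 0.31 in limma). POFUT2, which adds fucose to thrombospondin repeats, had a mean of 0.81 ± 0.91 (adjusted p = 0.306) and entered through the high BHB channel alone, among 10 other O-glycan enzymes with a median of 0.02. CHSY1, a chondroitin synthase, had -0.63 ± 0.53 (adjusted p = 0.302) and entered through the low BHB channel alone. DSE, which turns chondroitin into dermatan sulfate, gave no high BHB signal above background on any array. It entered through the low BHB channel alone, so that a ratio below 0 was favoured by the filter. Its ratios were -0.33, -0.22, -1.42 and -1.02. The mean was -0.75 ± 0.57, or 1.68-fold lower (95% interval -1.31 to -0.19, adjusted p = 0.275 in limma). The 5 tested genes of that proteoglycan list had a median of -0.13. The further oligosaccharyltransferase subunits (3 tested) had a median of 0.17, and the dolichol and flipping genes (3 tested) of -0.03.

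The labelled embryo stages were checked by marker genes. Trophectoderm markers were above background for 7 of 7 genes on the array, inner cell mass markers for 5 of 5 and hypoblast markers for 4 of 5. None of 6 cumulus and granulosa and none of 4 uterine or oviductal markers was tested. HBA and PTPRC of 4 blood markers and TNP1 of 3 sperm markers were tested. The 4 tested hypoblast markers had means above 0, though none passed the adjusted threshold: COL4A1 (1.14 ± 0.08), HNF4A (1.06 ± 1.28), GATA4 (0.55 ± 0.37) and PDGFRA (0.36 ± 0.35). GATA6 and SOX17 were not tested. Of the 4, 3 had an unadjusted p under 0.05 in limma, where 5.71% of all genes were higher at that threshold. HNF4A rested on arrays 2 and 3, with ratios of 0.09, 1.55, 2.65 and -0.03. The summed intensity of these 4 markers is given in units of 1000 normalised intensity units. It was 7.68 to 10.9 in the high and 3.37 to 6.54 in the low BHB RNAs. These ranges did not overlap, a trait not counted for other gene sets. The summed intensities of trophectoderm markers (58.9 to 109 and 84.0 to 118) and of inner cell mass markers (7.93 to 16.6 and 8.12 to 13.7) overlapped. The part of hypoblast content in the ratios of the glycosylation genes was not tested. In such whole-embryo RNA, fewer cells of a type and less RNA per cell cannot be told apart.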

How the data were processed

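Total RNA of bovine morulas and blastocysts was measured on 4 dual-colour Agilent arrays with 43794 probes. The authors' deposited scanner files hold spot and local background intensities of both channels without normalization, per the file headers. The authors' deposited log2 values ran in the direction high over low BHB, as shown by r = 0.967 to 0.992 against the ratios computed here. Their array medians were 0.00096 to 0.017. The background step behind them is not given in the sources used. The submitters' processing notes name limma. Of a further deposited table, 4 columns were not used.

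Median spot and background intensities were corrected with normexp (offset 50), fitted without 95 to 114 spots per array set aside by the scanner software. Loess (span 0.3) followed within each array, with those and control spots at weight 0. A channel was above background over the median plus 2 MAD of 153 negative control spots. Probes that reached this in either group's channel on 3 or more of the 4 arrays were tested, 16575 in all. Of the members 64 got there through both groups, 4 through high and 7 through low BHB alone, and none was saturated. The mean of the ratios, each taken as high over low BHB, was tested against 0 with lmFit and eBayes (limma 3.58.1, R 4.3.3). P-values were adjusted by Benjamini-Hochberg over all tested probes. The code was tested on simulated data.

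The brightest tested probe stood for a gene. Platform symbols were updated through a RefSeq gene table (assembly ARS-UCD2.0, names only): of 21790 probes with a symbol, 20025 carried a current one, 1524 an older synonym and 241 had no match. Levels per RNA are log2 intensities after loess and Aquantile scaling. All array values are given for members with an unadjusted p under 0.05, for the highest and lowest mean of each role, and for the core oligosaccharyltransferase subunits; DPAGT1, also in that rule, was not tested. Of each other pathway list up to 4 genes with an unadjusted p under 0.05 are named. Members, roles and lists were chosen with earlier results of these data known. Alternatives changed the background step, normalization, filter, probe choice, source of the ratios and dye term, averaged arrays that share a title number, or left out an array.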

Additional observations from a re-analysis of the deposited data

How the results depend on the processing

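Each result was recomputed under 15 other settings. Of the 75 members, 36 kept the sign of their mean in all 15, 6 kept it in the 14 in which they were tested, and 33 changed it in at least 1. The median of the members went from -0.14 with median centring to 0.11 with loess on tested probes. No member passed the adjusted threshold in 14 of the settings. The other averaged arrays sharing a title number before the fit, which takes such arrays as the same RNA with dyes exchanged. It leaves only 2 values per gene, and 5 members passed (6.67%, against 9.24% of all probes). These were B3GALNT1 (adjusted p = 0.00954 in limma, 0.00954 to 0.817 over the settings), B3GALT2 (0.00965, up to 0.611), B4GALT2 (0.0203, up to 0.678), EXT2 (0.0351, up to 0.708) and EXT1 (0.0389, up to 0.614). At an unadjusted p under 0.05 the higher members numbered 14 with that averaging (all genes 11.4%, and likewise below), 11 of 152 without a filter (5.02%), 7 with a dye term (5.34%), 6 with loess on tested probes (6.04%) and 0 with median centring, and the lower members 9 with median centring (all genes 0.47% higher and 22.7% lower). With an array left out, 4 to 9 of the 75 were higher (9 without array 1), where 2.59% to 6.6% of all genes were (5.27% without array 1). Lower were 1 to 5 (1 without array 4, 2 without array 1 or 3), where 7.15% to 10.5% of all genes were. Signs turned for genes near 0: CHST14 was 0.16 with normexp on all spots, 0.023 with loess on tested probes and 0.037 in the deposited values, RPN2 0.0033 without background correction, DAD1 0.024 as the mean of its probes, and STT3A -0.29 and DDOST -0.14 with median centring. With an array left out, CHST14 ranged from -0.23 to 0.24, STT3B from -0.52 to 0.023, RPN2 from -0.18 to 0.040, RPN1 from -0.11 to 0.077 and STT3A from -0.029 to 0.16. Leaving out array 1 moved 50 of the 75 means by over 1.5 times or across 0, array 2 moved 32, array 3 moved 35 and array 4 moved 35. Apart from what each setting changes by construction, causes were not tested.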

Other observations

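On array 1 the ratios of brighter glycosylation probes tended to be higher. Pearson's r between the ratio and the mean log2 intensity over the arrays was 0.34 across the 75 members, and 0.02 across all 7879 genes. On arrays 2, 3 and 4 it was -0.04, 0.18 and 0.12 across the members. These genes share the array, its dyes and its normalization, so that the values are a description with no test. Bright members with a high ratio on array 1 were B4GALT2 (2.31) and B3GALT2 (2.08), and EXT1 (-1.83) and MGAT4A (-1.73) were dim ones with a low ratio. These are picked examples, and the high BHB signals of EXT1 and MGAT4A were not above background on array 1. Other bright members, such as OSTF1 (-0.57) and PIGW (-0.66), had a ratio below 0 there.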
